A study of Mus musculus with 15 samples.

Results

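The genes described here are 10 members of the antioxidant and glutathione programme governed by the transcription factor NRF2, chosen by gene symbol from the 13342 genes of the deposited count table. They are Nfe2l2, Keap1, Slc7a11, Gclc, Gclm, Gsr, Txnrd1, Srxn1, Prdx1 and Nqo1, and all 10 passed the filter on low counts that left 12798 genes for testing. The rule that names them uses gene symbols and no measured value, but it was written with earlier results of these data known.

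RNA was sequenced from RAW264.7, a line of mouse macrophages that Abelson murine leukemia virus had transformed, at passages 6 to 14, in 5 groups of 3 libraries. Control cells received fresh medium without particles. The other groups received, in the same serum-containing medium, 1 of 4 particles. Stober50 and Stober500 are nonporous Stober silica of 50 and 500 nm, MSN500 is mesoporous silica of 500 nm, and MSN-PEG500 is its pegylated form, also 500 nm. The dosage labels name a fraction of the LC50 beside 13.1 µg/ml for Stober50, 16.8 µg/ml for Stober500, 111.8 µg/ml for MSN500 and 84 µg/ml for MSN-PEG500, and do not settle if that figure is the concentration given or the LC50 itself. Particle and dose changed together in every comparison and cannot be told apart. Exposure is given as 24 h in the treatment protocol and as 4 h in the extraction protocol. All libraries come from the same transformed line, and no label says that replicates were cultured separately, so the p-values reflect the spread among these samples only, and that spread may be technical.

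Library totals lay between 17683003 and 27253289 counts. All 9 macrophage markers examined were present, with a summed level per library of 16883 to 17455 CPM (counts scaled to library size) in control, 17758 to 18659 over both Stober groups, 16028 to 16568 with MSN500 and 15100 to 16275 with MSN-PEG500. Most markers of other cell types were not among the counted genes. Of 6 fibroblast markers Pdgfrb was listed, at 0.374 to 1.82 CPM, and of 8 lymphocyte markers Lck, at 4.95 to 7.55 CPM. Of 6 granulocyte and erythroid markers S100a8 was listed, at 0.708 to 1.40 CPM, and of 4 epithelial markers none. CPM here means counts scaled to the library total times its TMM factor, which was 0.974 to 0.984 in both mesoporous groups and 1.01 to 1.02 in the others. The part of these marker differences in the results was not tested. With RLE or upper quartile factors in place of TMM, the same number of members, 8, was called with MSN500 against control. In bulk RNA, a change in the share of cells that express a gene and a change in RNA per cell cannot be told apart.

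NRF2, the product of Nfe2l2, is a transcription factor that is bound in the cytoplasm by KEAP1, an adaptor that leads it to ubiquitination and degradation. Electrophiles and oxidants modify cysteines of KEAP1, NRF2 then accumulates and, with a small MAF partner, binds antioxidant response elements near genes for glutathione synthesis, thioredoxin recycling and quinone reduction. In macrophages this programme is known for limiting oxidative damage, and much of its control acts on the NRF2 protein, which RNA sequencing does not measure.

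Most of these genes changed with both mesoporous particles. None passed the threshold with Stober50 or Stober500, where 7.57% and 0.00781% of all genes did, so 0 of 10 is near those shares. With DESeq2, Txnrd1 passed with Stober50 (adjusted p = 0.0216). With MSN500, 7 of the 10 genes rose and 1 fell against control, and with MSN-PEG500 7 rose and 2 fell. The test was the quasi-likelihood F-test of edgeR with Benjamini-Hochberg adjustment over all genes, which gave every adjusted p printed here unless another tool is named, and a gene was called at 0.05. Of all genes tested, 42.9% were called with MSN500 (21.6% higher, 21.2% lower) and 34.4% with MSN-PEG500 (17.5% higher, 16.9% lower). With MSN500, every library lay above every control for 7 of the 10 genes and below for 1, as 26.5% and 26.3% of all genes did, and with MSN-PEG500 this held for 6 above and 2 below, as 21.4% and 21.3% did. The median log2 change of the 10 was 0.30 with MSN500 and 0.24 with MSN-PEG500, against 0.00 and -0.01 over all genes. The cystine transporter gene Slc7a11 showed the largest change of the 10 with either mesoporous particle, a 1.99-fold rise with MSN500 and 1.95-fold with MSN-PEG500. Gclc, the catalytic subunit gene of glutathione synthesis, went the other way, to 0.754 of control with MSN500 and 0.823 with MSN-PEG500. The 4 particle groups share the same 3 control libraries, so their comparisons with control are not independent of each other.

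**Figure D1:**
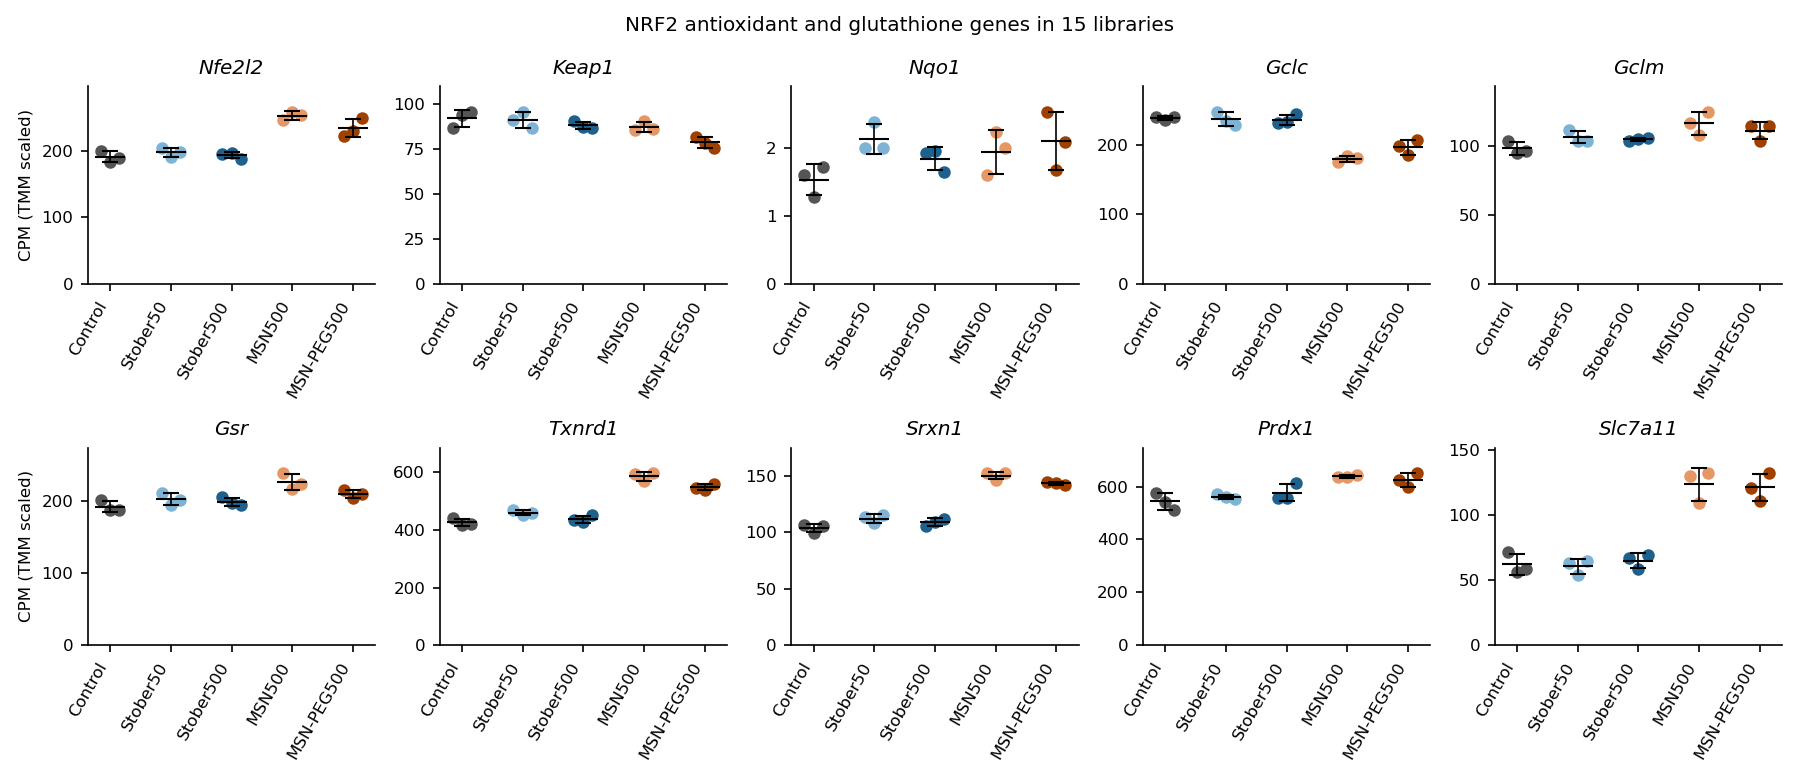
Level of each of the 10 genes in each of the 15 libraries, in CPM scaled by TMM factors, on linear axes that start at 0, with 3 libraries a group; horizontal lines mark the mean and bars the SD. The MSN500 and MSN-PEG500 libraries lie above all control libraries for Nfe2l2, Gsr, Txnrd1, Srxn1, Prdx1 and Slc7a11 and below them for Gclc, while Nqo1 stays under 3 CPM in every group.

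The level of the 10 genes in untreated cells was compared per length with the deposited FPKM values (counts scaled to exonic length in kb and to library depth). Prdx1 stood highest at 182 ± 11 FPKM in control (SD, n = 3), followed by Txnrd1 at 127 ± 4.29. Gsr at 71.4 ± 3.02 and Gclc at 71.3 ± 1.05 did not differ beyond their spread, and Nfe2l2 came next at 51.4 ± 2.25. Srxn1 was at 37.5 ± 1.47, Keap1 at 21 ± 1.03 and Gclm at 18.2 ± 0.973 FPKM. Slc7a11 was at 5.63 ± 0.756 FPKM and Nqo1, a textbook NRF2 target, was nearly silent at 1.01 ± 0.151.

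Promoter sequences are shown because they can be searched for the core of the antioxidant response element, the NRF2 site, TGACNNNGC. In RefSeq's table for GRCm38.p6, windows from 250 bases before to 50 bases after the start of the gene held 8 of the 10 genes, without Gclc and Gsr, in 10 windows. The core, searched on both strands, was found in 5 of the 8 genes (Nfe2l2, Gclm, Prdx1, Txnrd1 and Srxn1), and in 12.4% of all 32851 windows, or in 14.0% of the 27025 genes of the table. The match in Prdx1 also holds the AP-1 motif TGACTCA, the only 1 of the 5 that does. Capitals mark the match to the core, which reads as GCNNNGTCA where it lies on the opposite strand, and each sequence runs from 5′ to 3′ on the strand of the gene.
Nfe2l2, chr2:75704664-75704913, minus strand: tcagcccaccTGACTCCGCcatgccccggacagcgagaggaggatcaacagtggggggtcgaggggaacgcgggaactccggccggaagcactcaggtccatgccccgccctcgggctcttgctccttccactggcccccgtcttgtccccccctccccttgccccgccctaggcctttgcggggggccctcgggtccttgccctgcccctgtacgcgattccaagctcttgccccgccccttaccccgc
Gclm, chr3:122245307-122245556, plus strand: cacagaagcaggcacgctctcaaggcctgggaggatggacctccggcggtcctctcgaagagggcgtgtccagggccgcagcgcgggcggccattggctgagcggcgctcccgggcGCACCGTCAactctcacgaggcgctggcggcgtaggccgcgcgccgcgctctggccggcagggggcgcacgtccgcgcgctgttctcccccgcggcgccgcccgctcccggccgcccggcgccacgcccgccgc
Prdx1, chr4:116685349-116685598, plus strand: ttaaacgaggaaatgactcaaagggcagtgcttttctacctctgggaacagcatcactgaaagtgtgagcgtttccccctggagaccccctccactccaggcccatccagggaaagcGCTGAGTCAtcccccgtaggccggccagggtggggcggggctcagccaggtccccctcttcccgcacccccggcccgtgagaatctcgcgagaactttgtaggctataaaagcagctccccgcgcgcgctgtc
Txnrd1, chr10:82858956-82859205, plus strand: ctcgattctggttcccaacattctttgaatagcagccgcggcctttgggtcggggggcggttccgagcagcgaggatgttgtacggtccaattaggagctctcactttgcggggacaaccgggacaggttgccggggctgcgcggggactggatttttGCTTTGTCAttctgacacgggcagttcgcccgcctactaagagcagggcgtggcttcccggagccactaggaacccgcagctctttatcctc
The match began at base -240 from the start of Nfe2l2, -134 of Gclm, -133 of Prdx1 and -92 of the Txnrd1 start shown, which is 1 of 3 starts in the table. In Srxn1 it lay downstream of the start, from base 29 to 37, and the stretch around it is given in the same way.
Srxn1, chr2:152105542-152105570, plus strand: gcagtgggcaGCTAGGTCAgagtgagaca
Slc7a11, the gene with the largest change, had no match in its window, and neither had Keap1 or Nqo1. The 250 bases before its start are printed for comparison, with no capitals.
Slc7a11, chr3:50443614-50443863, minus strand: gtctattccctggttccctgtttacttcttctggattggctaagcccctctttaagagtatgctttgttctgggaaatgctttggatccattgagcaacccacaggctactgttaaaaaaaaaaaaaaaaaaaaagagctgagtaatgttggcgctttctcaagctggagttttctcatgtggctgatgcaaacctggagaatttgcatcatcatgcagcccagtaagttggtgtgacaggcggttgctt
A match describes letters in a window and is not evidence of binding, and the absence of one says only that these letters are not in this window.

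Nfe2l2 lies at chr2:75675513-75704641 on the minus strand (GRCm38, ENSMUSG00000015839, protein-coding) and holds the small nuclear RNA gene Gm24996. Its level in control was 200, 184 and 190 CPM in replicates 1 to 3. In MSN500 it was 246, 259 and 254 CPM and in MSN-PEG500 223, 230 and 250 CPM. Every library of both mesoporous groups was above every control library. Nfe2l2 rose by a log2 change of 0.40 ± 0.04 (SE) with MSN500 (95% interval 0.31 to 0.49, adjusted p = 2.02e-08) and by 0.29 ± 0.04 with MSN-PEG500 (0.20 to 0.38, adjusted p = 5.28e-06). With Stober50 the libraries were at 204, 191 and 199 CPM and with Stober500 at 196, 197 and 188 CPM, both overlapping control. The log2 change there was 0.05 (-0.04 to 0.14) and 0.02 (-0.07 to 0.11).

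Keap1, the gene of the NRF2 repressor, lies at chr9:21229730-21239332 on the minus strand (ENSMUSG00000003308, protein-coding). It is overlapped by the antisense gene Gm16754. How strand was used when reads were counted is not stated, so reads of the pair cannot be told apart. Control libraries were at 86.9, 94.1 and 95.5 CPM, and MSN-PEG500 libraries at 82.0, 78.6 and 75.7 CPM. All 3 MSN-PEG500 libraries were below all controls, and Keap1 fell by 0.22 ± 0.05 on the log2 scale (adjusted p = 4.54e-04). In MSN500 the values were 85.8, 90.7 and 86.0 CPM, which overlapped control, with a log2 change of -0.07 (-0.17 to 0.02, adjusted p = 0.213). Stober50 (91.1, 95.8 and 86.7 CPM) and Stober500 (90.5, 87.5 and 86.9 CPM) overlapped control as well.

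Slc7a11 encodes xCT, the exchanger subunit that brings in cystine for glutathione synthesis, and lies at chr3:50364936-50443613 on the minus strand (ENSMUSG00000027737, protein-coding). It overlaps Gm37498, an unclassified transcript on the same strand. Control libraries were at 71.5, 56.3 and 58.5 CPM. With MSN500 the level was 130, 109 and 132 CPM and with MSN-PEG500 121, 111 and 132 CPM. The lowest mesoporous library was above the highest control, and the log2 change was 0.99 ± 0.11 with MSN500 (0.74 to 1.24, adjusted p = 1.65e-05) and 0.96 ± 0.11 with MSN-PEG500 (0.71 to 1.21, adjusted p = 2.99e-05). Nonporous particles left Slc7a11 at 63.0, 54.0 and 64.6 CPM (Stober50) and 67.2, 58.4 and 68.9 CPM (Stober500), both overlapping control. Their intervals of -0.29 to 0.22 and -0.20 to 0.32 on the log2 scale exclude a change of the size seen with either mesoporous particle.

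Glutamate-cysteine ligase makes the first, rate-limiting step of glutathione synthesis and consists of a catalytic subunit, encoded by Gclc, and a modifier subunit, encoded by Gclm. Gclc, at chr9:77754535-77794485 on the plus strand (ENSMUSG00000032350, protein-coding), was at 241, 236 and 241 CPM in control. It was at 176, 184 and 181 CPM in MSN500 and at 198, 185 and 207 CPM in MSN-PEG500. All 6 mesoporous libraries were below all controls, and Gclc fell by 0.41 ± 0.04 on the log2 scale with MSN500 (adjusted p = 8.10e-09) and fell by 0.28 ± 0.04 with MSN-PEG500 (adjusted p = 5.08e-06). With the nonporous particles it was at 248, 235 and 229 CPM (Stober50) and 232, 233 and 245 CPM (Stober500), with log2 changes of -0.01 (-0.09 to 0.07) and -0.02 (-0.10 to 0.07).

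Gclm moved opposite to Gclc. It lies at chr3:122245557-122269984 on the plus strand (ENSMUSG00000028124, protein-coding) and overlaps the processed pseudogene Gm6061 on its own strand and Gm17494 on the other. Control libraries were at 104, 95.1 and 96.4 CPM, MSN500 at 117, 108 and 125 CPM and MSN-PEG500 at 115, 104 and 115 CPM. The MSN500 libraries were all above control, while the lowest MSN-PEG500 library did not clear the highest control. Gclm rose by 0.24 ± 0.05 on the log2 scale with MSN500 (adjusted p = 4.04e-04) and by 0.18 ± 0.05 with MSN-PEG500 (adjusted p = 0.00886). Stober50 libraries were at 112, 104 and 104 CPM and Stober500 at 104, 105 and 106 CPM, changes of 0.11 (0.01 to 0.22, adjusted p = 0.190) and 0.09 (-0.02 to 0.19, adjusted p = 0.516) that did not pass.

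The ratio of Gclc to Gclm, per length from the deposited FPKM values, was 3.73, 4.02 and 4.05 in control, a mean of 3.93 ± 0.176 (SD, n = 3). It was 2.44, 2.76 and 2.35 in MSN500 (2.52 ± 0.218) and 2.79, 2.87 and 2.92 in MSN-PEG500 (2.86 ± 0.0677). No mesoporous library reached a ratio found in control. Stober50 gave 3.59, 3.64 and 3.58 (3.60 ± 0.0334) and Stober500 3.61, 3.60 and 3.74 (3.65 ± 0.0810). The Stober50 ratios lay below all controls too, while the Stober500 ratios overlapped them. An exact two-sided permutation test against control gave p = 0.1 for MSN500, MSN-PEG500 and Stober50 and p = 0.200 for Stober500, and with 3 libraries against 3 it cannot go below 0.1.

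**Figure D2:**
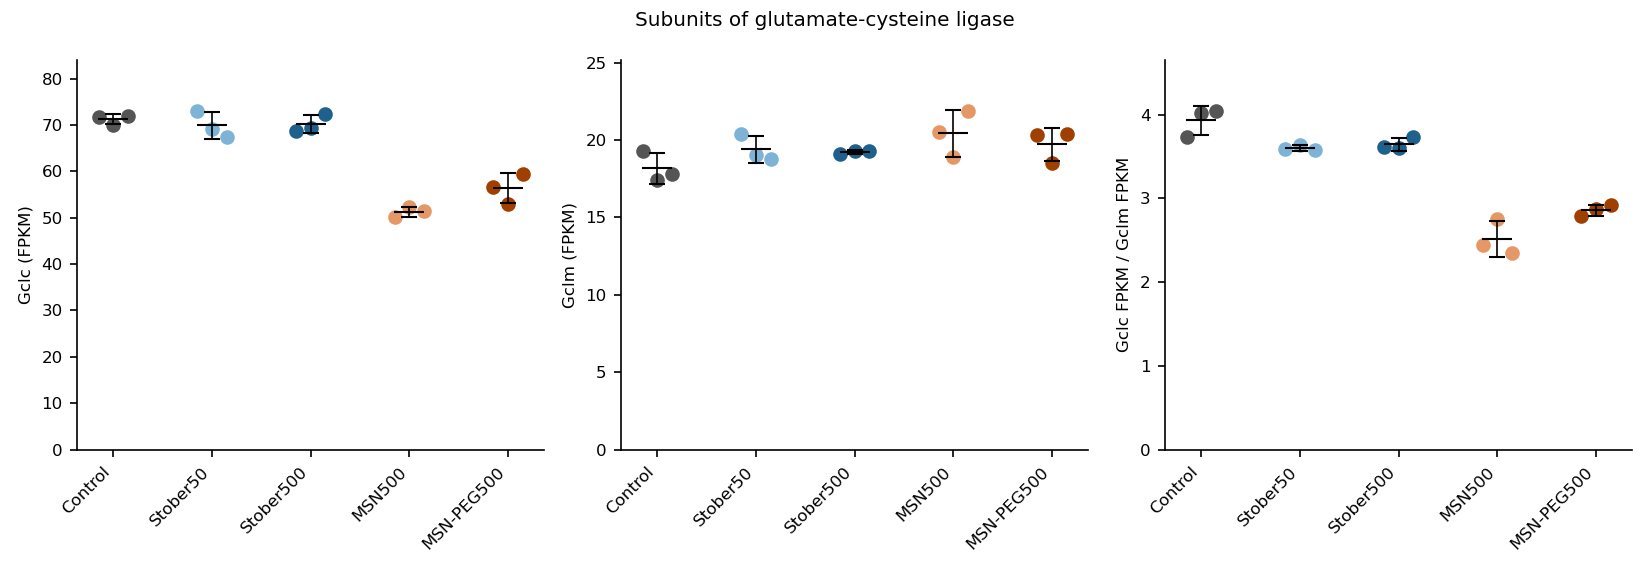
Deposited FPKM of Gclc and of Gclm and their ratio in each library, on linear axes that start at 0, with 3 libraries a group; lines mark the mean and bars the SD. The ratio falls from 3.93 in control to 2.52 in MSN500 and 2.86 in MSN-PEG500, with the Stober groups at 3.60 and 3.65.

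Gsr encodes glutathione reductase, which regenerates reduced glutathione with NADPH, and lies at chr8:33652523-33698163 on the plus strand (ENSMUSG00000031584, protein-coding), with the small nucleolar RNA gene Gm24727 inside it. Control libraries were at 202, 188 and 188 CPM, MSN500 at 239, 217 and 224 CPM and MSN-PEG500 at 216, 204 and 210 CPM. Both mesoporous groups lay above control without overlap. Gsr rose by 0.24 ± 0.04 on the log2 scale with MSN500 (adjusted p = 6.74e-05). The rise with MSN-PEG500 was 0.13 ± 0.04 (adjusted p = 0.0247), but the call was lost under upper quartile scaling (adjusted p = 0.0831) and when control replicate 2 (0.0749), control replicate 3 (0.0785) or MSN-PEG500 replicate 1 (0.0872) was left out. With Stober50 (212, 195 and 202 CPM) and Stober500 (206, 198 and 195 CPM) the libraries overlapped control.

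Txnrd1, Srxn1 and Prdx1 belong to the thioredoxin arm. Txnrd1, the cytosolic thioredoxin reductase, a selenoprotein that reduces thioredoxin with NADPH, lies at chr10:82859206-82897724 on the plus strand (ENSMUSG00000020250, protein-coding) and overlaps Eid3 on the same strand. It was at 441, 416 and 420 CPM in control, 594, 568 and 596 CPM in MSN500 and 546, 538 and 558 CPM in MSN-PEG500. The groups did not overlap, and MSN500 also lay above MSN-PEG500 in every library. Txnrd1 rose by 0.46 ± 0.04 on the log2 scale with MSN500 (adjusted p = 9.98e-11) and by 0.36 ± 0.04 with MSN-PEG500 (adjusted p = 1.22e-08). In Stober50 it was at 468, 451 and 460 CPM, all above control, with a log2 change of 0.11 ± 0.04 (0.03 to 0.19, adjusted p = 0.0690) that passed with DESeq2 (adjusted p = 0.0216). Stober500 libraries, at 433, 426 and 451 CPM, overlapped control.

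Srxn1 encodes sulfiredoxin, which repairs over-oxidised peroxiredoxins, and lies at chr2:152105516-152111376 on the plus strand (ENSMUSG00000032802, protein-coding). In control it was at 106, 99.4 and 105 CPM, in MSN500 at 152, 146 and 152 CPM and in MSN-PEG500 at 144, 143 and 142 CPM. Both mesoporous groups were clear of control, and the SD over the 3 MSN-PEG500 libraries was 1.31 CPM. Its log2 change of 0.53 ± 0.04 with MSN500 (0.45 to 0.62, adjusted p = 1.75e-11) was followed by one of 0.46 ± 0.04 with MSN-PEG500 (adjusted p = 4.24e-10). Stober50 libraries were at 113, 108 and 115 CPM, above all controls, with a change of 0.11 ± 0.04 (adjusted p = 0.0898), and Stober500 at 105, 109 and 112 CPM.

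Prdx1, the peroxiredoxin that scavenges peroxides and is itself a substrate of sulfiredoxin, lies at chr4:116685544-116700822 on the plus strand (ENSMUSG00000028691, protein-coding). Control libraries were at 577, 543 and 511 CPM, MSN500 at 635, 636 and 643 CPM and MSN-PEG500 at 624, 598 and 650 CPM. Controls were more scattered than MSN500 libraries, and all mesoporous libraries were above them. Prdx1 rose by 0.23 ± 0.04 on the log2 scale with MSN500 (adjusted p = 1.30e-04) and by 0.20 ± 0.04 with MSN-PEG500 (adjusted p = 9.52e-04). Stober50 (570, 560 and 554 CPM) and Stober500 (557, 558 and 615 CPM) overlapped control.

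Nqo1, which encodes a quinone reductase and lies at chr8:107388225-107403206 on the minus strand (ENSMUSG00000003849, protein-coding), had 29 to 61 counts per library, which limits what can be seen. Control libraries were at 1.60, 1.28 and 1.72 CPM, MSN500 at 1.60, 2.23 and 1.99 CPM and MSN-PEG500 at 2.53, 1.67 and 2.09 CPM. Both mesoporous groups overlapped control. The log2 change was 0.36 ± 0.20 with MSN500 (-0.05 to 0.76, adjusted p = 0.150) and 0.48 ± 0.20 with MSN-PEG500 (0.07 to 0.88, adjusted p = 0.0612, and 0.0236 without MSN-PEG500 replicate 2). Stober50, at 2.00, 2.38 and 2.00 CPM, was above all controls, with a change of 0.48 ± 0.19 (adjusted p = 0.122), and Stober500 was at 1.92, 1.95 and 1.65 CPM. At this depth no change of Nqo1 passed the threshold with all libraries in the fit.

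**Figure D3:**
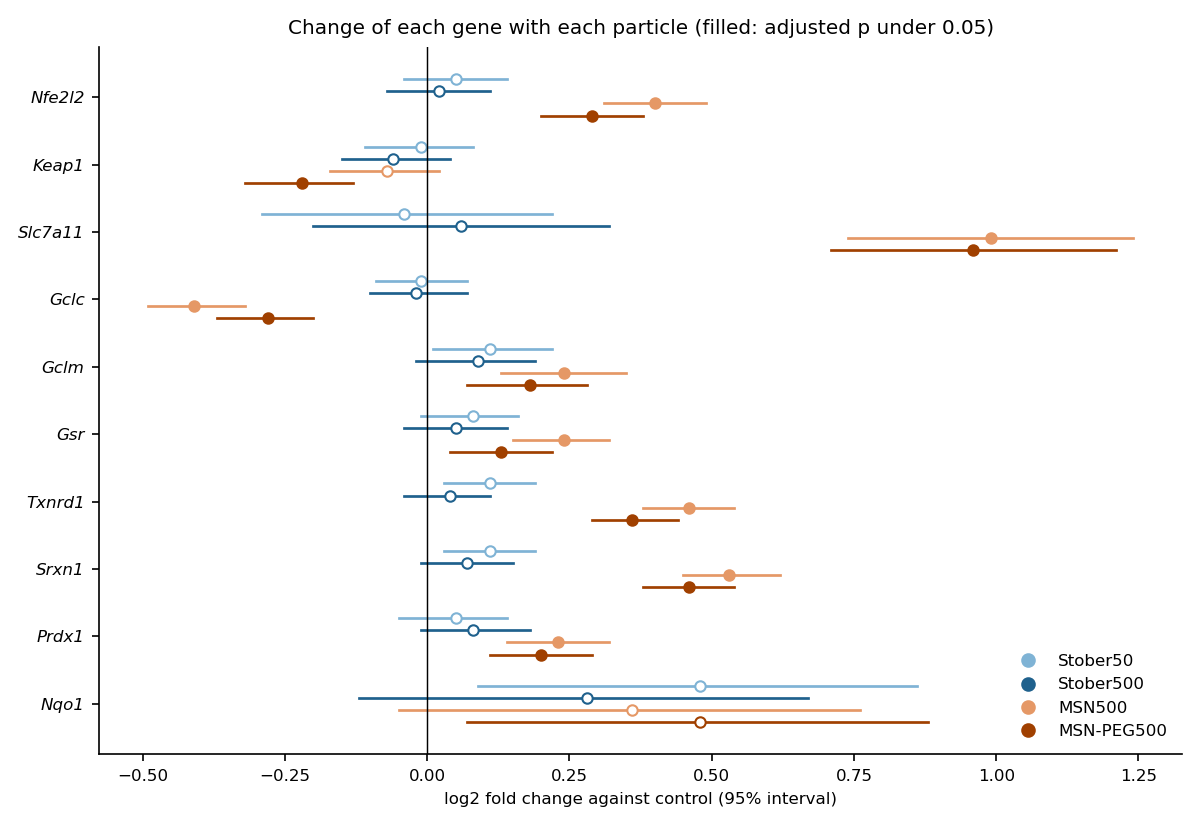
Log2 fold change of each gene against control for each particle, with 95% intervals; filled points have an adjusted p under 0.05. Slc7a11 lies near 1 with both mesoporous particles, Gclc is negative with both, and all points of the Stober particles are open.

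The comparison of each nonporous particle with control asks what silica without pores does to the programme. With Stober50, 0 of the 10 genes were called by edgeR, against 7.57% of all genes, 1 by DESeq2 (Txnrd1) and 0 by limma-voom. At an unadjusted p under 0.05 there were 4 of the 10, and the share of all genes at that threshold was not counted. Nqo1, Txnrd1 and Srxn1 were higher in every Stober50 library than in any control, which held for 13.9% of all genes. The median log2 change of the 10 was 0.07, against 0.00 over all genes. With Stober500, 0 of the 10 were called by edgeR, DESeq2 or limma-voom and 0 had an unadjusted p under 0.05, against 0.00781% of all genes called, and every one of the 10 overlapped control, where 15.9% of all genes did not. Across genes, log2 changes with Stober50 and Stober500 were related to exonic length (Spearman's rho -0.263 and -0.257 over 12798 genes, which share their libraries). For MSN500 and MSN-PEG500 against control rho was -0.111 and 0.0304. With a trend on length removed, 0 of the 10 were called with either nonporous particle, and with Stober50 Slc7a11 moved from -0.04 to 0.06 and Gclm from 0.11 to 0.14. Between Stober50 and Stober500, which differ in size and in dose, 0 of the 10 were called by edgeR, DESeq2 or limma-voom and 0 had an unadjusted p under 0.05, against 2.24% of all genes called. Slc7a11 differed by -0.10 on the log2 scale there and Txnrd1 by 0.07.

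MSN500 and Stober500 share the nominal size and differ in porosity and dose. Of the 10 genes, 7 were higher in MSN500 and 1, Gclc, was lower, against 39.4% of all genes called (19.9% higher, 19.5% lower). Slc7a11 was 1.91-fold higher (log2 difference 0.93 ± 0.11, adjusted p = 2.96e-05), Srxn1 1.38-fold (0.47 ± 0.04, adjusted p = 2.57e-10), Txnrd1 1.34-fold (0.42 ± 0.04) and Nfe2l2 1.31-fold (0.39 ± 0.04). Gclc was at 180 CPM against 236, a log2 difference of -0.39 ± 0.04 (adjusted p = 1.80e-08). Gsr was higher by 0.18 ± 0.04 (adjusted p = 0.00105). Gclm was higher by 0.15 ± 0.05 (adjusted p = 0.0183), a call that upper quartile scaling ended (adjusted p = 0.0513), as did leaving out Stober500 replicate 1 (0.0566), MSN500 replicate 1 (0.0502) or MSN500 replicate 3 (0.118). Prdx1 was higher by 0.15 ± 0.04 (adjusted p = 0.00956), which was lost without Stober500 replicate 1 (0.0626) or 2 (0.0583).

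The order of the group means was not the same for all 10 genes. For Nfe2l2, Txnrd1, Srxn1, Slc7a11 and Prdx1 the order was MSN500, MSN-PEG500, then the nonporous and control groups, and the step from MSN-PEG500 down to the next group was called (adjusted p = 7.38e-08 for Srxn1, 6.32e-06 for Txnrd1, 6.98e-05 for Nfe2l2, 5.10e-05 for Slc7a11 and 0.0489 for Prdx1). In these contrasts 33.1% of all genes were called for MSN-PEG500 against Stober50 and 34.5% against Stober500. For Prdx1 the libraries overlapped, at 598 to 650 CPM in MSN-PEG500 and 557 to 615 CPM in Stober500. These contrasts were not run under other settings. None of the other neighbours in that order differed past the threshold for these 5 genes. Keap1 ran from 92.1 CPM in control through Stober50, Stober500 and MSN500 to 78.8 CPM in MSN-PEG500, and its last step was called (adjusted p = 0.0492). For Gclc, highest in control and lowest in MSN500, the step from Stober500 at 236 CPM to MSN-PEG500 at 197 CPM was the called one (adjusted p = 1.25e-05). Gclm and Gsr were also highest in MSN500, then MSN-PEG500, and Nqo1 was highest in Stober50. No pair of neighbours was called for Gclm, Gsr or Nqo1, whose group means ran from 98.6 to 117, 193 to 227 and 1.53 to 2.13 CPM. In the test of any difference among the 5 groups, 9 of the 10 genes were called, against 49.7% of all genes, and Nqo1 was not (adjusted p = 0.170).

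Pegylation was addressed by MSN-PEG500 against MSN500, whose doses differ. Keap1 was the gene called, 1 of the 10 against 8.02% of all genes (3.92% lower), at 78.8 CPM in MSN-PEG500 and 87.5 in MSN500 (log2 difference -0.15 ± 0.05, adjusted p = 0.0492). That call was lost with RLE size factors (adjusted p = 0.0547), DESeq2 (0.0530), limma-voom (0.0586), a fit of these groups alone (0.0648) and without MSN500 replicate 1 (0.0944), 2 (0.183) or 3 (0.0707) or MSN-PEG500 replicate 2 (0.0780) or 3 (0.178). Gsr, Txnrd1, Srxn1 and Keap1 were lower in every MSN-PEG500 library than in any MSN500 library, which held for 14.3% of all genes, and Gclc was higher in every one, as were 13.6% of all genes. The log2 difference was -0.10 for Txnrd1 (-0.18 to -0.02, adjusted p = 0.0991), -0.11 for Nfe2l2 (-0.20 to -0.02, adjusted p = 0.116) and 0.13 for Gclc (0.04 to 0.21, adjusted p = 0.0608, and 0.0390 with DESeq2). Nfe2l2 passed without MSN-PEG500 replicate 3 (-0.16, adjusted p = 0.0238) and Gclc without MSN-PEG500 replicate 2 (adjusted p = 0.0224). Slc7a11 differed by -0.03, with an interval of -0.27 to 0.21, so a difference of up to that size cannot be told from none. Under the other settings with all libraries of these groups, removal of a length trend among them, it ran from -0.12 to -0.03. Across genes, log2 differences between MSN-PEG500 and MSN500 were related to exonic length (Spearman's rho 0.268).

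Over the 15 libraries many of the members' levels varied together, as Pearson's r of log2 CPM describes, given as a description because the points share libraries and fall apart into the mesoporous and the other groups. Txnrd1 and Srxn1 had r 0.988, Srxn1 and Slc7a11 0.961, and Nfe2l2 and Txnrd1 0.957. Gclc ran against them, with r -0.939 to Srxn1 and -0.904 to Nfe2l2, and Nqo1 had no r above 0.458. Keap1 was negative with each gene that rose, from -0.408 with Gsr to -0.728 with Slc7a11. Among all tested genes outside the 10, those most like Nfe2l2 were Pea15a (0.975), Slc25a25 (0.975), Hnrnpll (0.972), Mcoln2 (0.971) and Prosc (0.970). Mcoln2, a channel of the endolysosomal TRPML family, was at 5.11 CPM in control, 21.2 in MSN500 and 15.4 in MSN-PEG500. Those most like Srxn1 were Il1rn (0.990), Scly (0.989), Vimp (0.989), Ctsk (0.988) and Atp6v1d (0.987). Il1rn, the interleukin 1 receptor antagonist gene, was at 60.3 CPM in control, 245 in MSN500 and 222 in MSN-PEG500, and Ctsk, a lysosomal protease gene, at 7.37, 23.5 and 23.6 CPM.

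Genes around the 10 in the same pathways were taken from 5 lists, some of which share genes. Of 19 regulators of NRF2, 17 were tested, and 6 rose and 3 fell with MSN500 and 6 rose and 1 fell with MSN-PEG500. Those calls were 52.9% and 41.2% of the list, beside 42.9% and 34.4% of all genes. The small MAF gene Maff, a partner of NRF2, rose from 14.9 to 34.3 CPM with MSN500 (log2 change 1.20 ± 0.13, adjusted p = 3.99e-06) and to 31.1 CPM with MSN-PEG500 (1.06). Sqstm1, the autophagy receptor p62 that can sequester KEAP1, rose from 400 to 816 CPM with MSN500 (1.03 ± 0.04, adjusted p = 9.22e-18), 787 with MSN-PEG500 and 536 with Stober50. Its counts can include reads of Mrnip on the opposite strand. The ubiquitin ligase gene Trim21 fell from 11.1 to 8.70 CPM with MSN500 (adjusted p = 0.00191), while Bach1, a repressor that competes with NRF2 for its sites, was at 55.2 CPM against 59.4 (-0.10 ± 0.05, adjusted p = 0.125).

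Of 25 tested NRF2 targets outside the 10, 8 rose and 4 fell with each mesoporous particle, which is 48.0% of the list beside 42.9% of all genes with MSN500 and 34.4% with MSN-PEG500. With Stober50, 6 rose and 1 fell, 28.0% of the list beside 7.57% of all genes. Hmox1, the heme oxygenase gene, was at 132 CPM in control, 181 with Stober50, 146 with Stober500, 319 with MSN500 and 314 with MSN-PEG500, and its log2 change with MSN500 was 1.28 ± 0.05 (adjusted p = 3.07e-16). The ferritin heavy chain gene Fth1 rose from 3653 CPM to 6534 with MSN500, 5564 with MSN-PEG500 and 4321 with Stober50. Ftl1, the ferritin light chain gene, rose from 1212 to 1900, 1645 and 1469 CPM in the same order, and its counts can hold reads of the overlapping Gm10252 and Gm22133 or of its pseudogenes. With Stober500, Hmox1, Fth1 and Ftl1 did not pass (adjusted p = 0.231, 0.235 and 0.409). The list median was 0.09 with MSN500, 0.04 with MSN-PEG500, 0.09 with Stober50 and 0.04 with Stober500.

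Among 23 tested genes of glutathione synthesis, cycling and use, 5 rose and 5 fell with MSN500 and 2 rose and 4 fell with MSN-PEG500. At 43.5% and 26.1% called, the list was near the share of all genes with MSN500 (42.9%) and under it with MSN-PEG500 (34.4%). The microsomal glutathione transferase gene Mgst2, which overlaps Gm37261, fell from 23.8 to 16.0 CPM with MSN500 (log2 change -0.58 ± 0.07, adjusted p = 2.50e-07) and to 17.8 CPM with MSN-PEG500. Glutaredoxin, Glrx, fell from 89.6 to 71.4 and 73.4 CPM. Gstk1, at 4 to 12 counts per library, had a log2 change of -1.0 ± 0.40 with MSN500 (adjusted p = 0.0465). The list of the thioredoxin and peroxiredoxin system also held sestrins, methionine sulfoxide reductases, Selenow, Selenot, superoxide dismutases and catalase. Of its 20 tested genes, 8 rose and 4 fell with MSN500 and 6 rose and 4 fell with MSN-PEG500. That was 60% and 50% called, beside 42.9% and 34.4% of all genes. The rises with MSN500 were Txn2, Txnrd3 and Prdx5 and, from the added families, Msra, Msrb1, Selenow, Sod2 and Cat. The methionine sulfoxide reductase gene Msrb1 rose from 120 to 182 and 180 CPM, the reductase gene Txnrd3 rose from 4.91 to 7.05 and 6.38 CPM, and Sesn1, a sestrin gene that overlaps 9930024M15Rik, fell from 89.6 to 55.0 and 55.9 CPM with MSN500 and MSN-PEG500. Txn1, the thioredoxin that Txnrd1 reduces, was at 548 CPM with MSN500 and 491 with MSN-PEG500 against 515 in control (adjusted p = 0.117 and 0.253).

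NADPH is the reductant that Gsr and Txnrd1 use. Of 15 tested genes of the pentose phosphate pathway and of NADPH supply, 1 rose and 4 fell with MSN500. With MSN-PEG500, 0 rose and 5 fell. That was 33.3% called with each, beside 42.9% and 34.4% of all genes. Idh1, the cytosolic isocitrate dehydrogenase, fell from 351 to 296 CPM with MSN500 (log2 change -0.24 ± 0.04, adjusted p = 2.39e-05), 292 with MSN-PEG500 and 286 with Stober50. Taldo1, the transaldolase gene, fell from 679 to 604 and 606 CPM with the mesoporous particles, and Rpia, a ribose phosphate isomerase gene, rose from 56.5 to 63.5 CPM with MSN500 (adjusted p = 0.00634). G6pdx, which makes glucose-6-phosphate dehydrogenase and overlaps Ikbkg on the opposite strand, was at 373 CPM with MSN500 and 369 with MSN-PEG500 against 383 in control (adjusted p = 0.456 and 0.331). With Stober500, edgeR called 0 genes of any of the 5 lists, beside 0.00781% of all genes. At an unadjusted p under 0.05 there were 4 regulators, 7 targets and 6 glutathione genes. The thioredoxin list had 4 such genes and the pentose phosphate and NADPH list 0. The share of all genes at that unadjusted threshold was not counted, so these numbers have no background and are not read as a response.

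**Figure D4:**
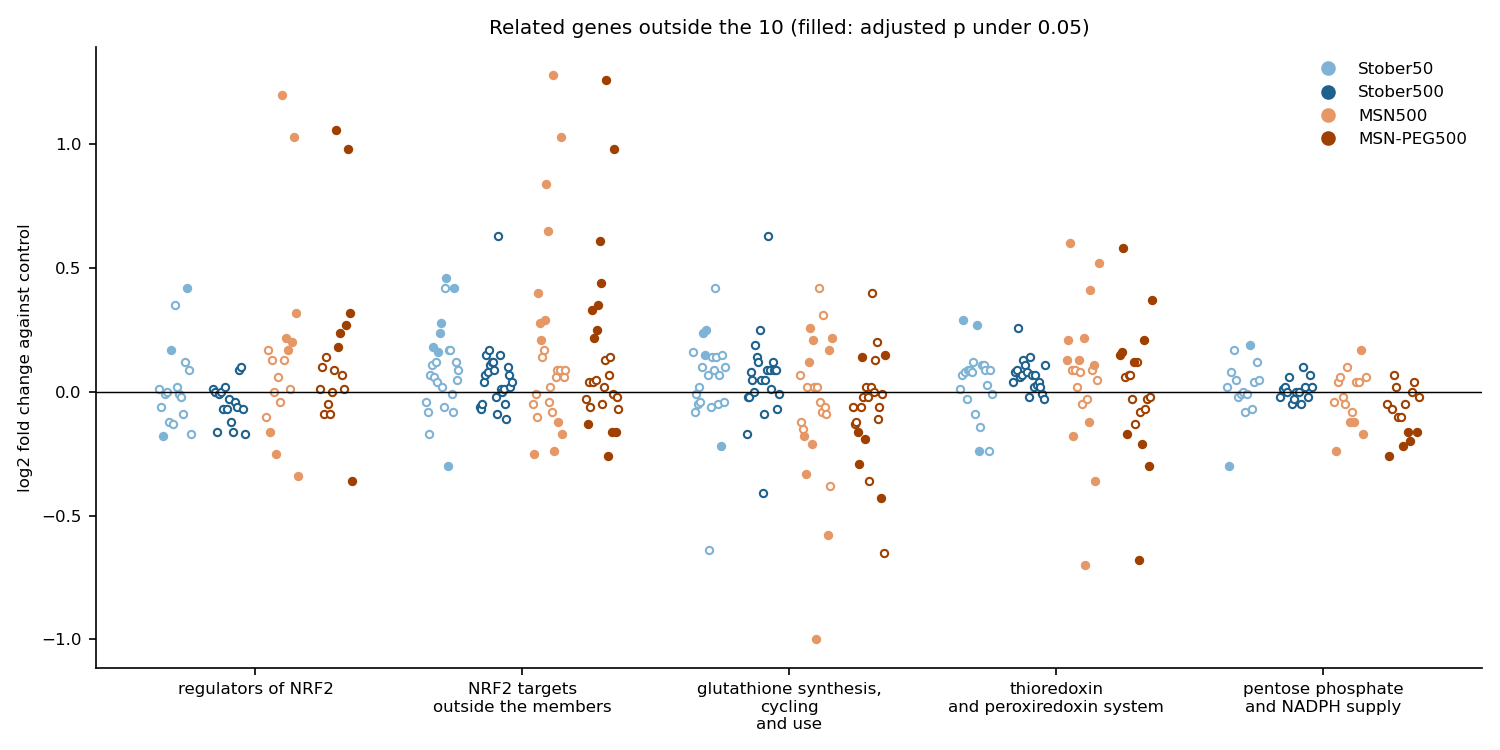
Log2 fold change against control of each tested gene in the 5 related lists for each particle; filled points have an adjusted p under 0.05. Hmox1 at 1.28, Maff at 1.20 and Sqstm1 at 1.03 stand highest with MSN500, Sqstm1 appearing in both lists that hold it, and the Stober500 points are all open.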

How the data were processed

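Per the labels, 15 RAW264.7 RNA libraries were made with Illumina TruSeq RNA kits and read as single reads on a HiSeq2000. The submitters' processing notes name limma 3.28.21, DESeq2 and Novoalign 2.08.03, with the build given as mm10 and as GRCm38. Per the file headers, the deposited counts are whole numbers of reads per gene, and the authors' deposited FPKM values divide them by exonic length and depth. The authors' deposited log2 ratios and scores (-10 log10 of an adjusted p) were, per the column descriptions, made with DESeq2, and their exon scores from a chi-square test without replicates. The exonic length used for a length trend was recovered from the deposited counts and FPKM values. For the 10 members it was set beside the deposited exonic bases per gene. The sources used here do not give the strand setting of the counting. Rlog values and threshold lists were not used here.

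Counts were tested with edgeR 4.0.16 in R 4.3.3 by a quasi-likelihood F-test with robust estimation, TMM factors and filterByExpr, with 1 mean per group over all 15 libraries, and adjusted over 12798 genes. Log2 CPM used a prior count of 2. Log2 fold changes carry their SE and a 95% interval, and levels are mean ± SD. The test was checked on simulated data with the same spread for every gene and no effect of replicate or length, so the check does not cover these. Replicate libraries differed by 2.19 to 6.81 chi-square per degree of freedom, so none was a duplicate. Alternatives were RLE and upper quartile factors, no filter, DESeq2 1.42.0, limma-voom 3.58.1, the groups compared alone, a replicate block, removal of a length trend and leaving out each library.

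Named beside the 10 members are Hmox1, Sqstm1, Bach1, Txn1, G6pdx, Fth1, Ftl1, up to 3 genes per related list with the largest change called in MSN500 against control, and the 5 genes most like Nfe2l2 and most like the member with the smallest p in the 5-group test. Dpp3, Selenow and Selenot were matched by older symbols. The members and lists were chosen with earlier results of these data known. Of the 13173 genes that GENCODE M21 (GRCm38) holds, 99.96% overlapped the deposited position, and start and end were the same for 6 of the 10 members. Figures were drawn with matplotlib 3.10.9.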

Additional observations from a re-analysis of the deposited data

Results flagged for a closer look

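The authors' deposited table also scores, for each pair of groups, the exon of a gene with the largest difference in its share of reads, from a chi-square test that did not model replicates. For Gsr such a score was given for the exon at chr8:33653237-33653780 (GRCm38, 544 bases, an annotated exon with coding sequence and UTR in 1 of 3 transcripts) in each of the 4 comparisons of MSN-PEG500 with another group. In the authors' deposited table the Gsr score was 237 for control over MSN-PEG500 (exon log2 ratio 1.11), 266 for MSN-PEG500 over MSN500 (-1.18), 368 for MSN-PEG500 over Stober50 (-1.34) and 281 for MSN-PEG500 over Stober500 (-1.25). For Gclm the authors' deposited table gives a score of 227 for the exon at chr3:122245553-122246112 (560 bases, in 5 of 7 transcripts), for MSN-PEG500 over Stober50 (-1.03). All 5 scores involve MSN-PEG500 and are lower there. The share of all genes whose exon score stood for a p under 0.05 was 1.21% to 2.35% in the authors' deposited table for the comparisons that involve MSN-PEG500 and 0.0225% to 0.217% for the others. These values come from data outside the gene-level counts, and no replicate value per exon was analysed here.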

How the results depend on the processing

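Of 976 log2 changes of the members under an alternative, 925 kept their direction and their side of the threshold, 19 lost a call, 7 gained one and 25 changed sign, 0 of these being called in either fit. The count of members called with MSN500 against control was 8 under every alternative run, and in the 5-group test 9. With Stober50 against control it was 0, and 1 with DESeq2 and 1 with the replicate block (Txnrd1, adjusted p = 0.0431). For MSN-PEG500 against MSN500 it was 1, and 0 with RLE size factors, 0 with limma-voom, 0 with the groups compared alone and 2 with the replicate block, which added Gsr (adjusted p = 0.0443). The block changed no other member call. Replicate numbers were not taken to pair libraries: 0 of 21 correlations of same-numbered deviations were over 0.1 (range -0.164 to 0.0589), and 7 of 15 libraries matched best with their own number. These correlations run over all genes and cannot exclude a replicate effect on single members. Leaving out single libraries gave 0 to 1 members for MSN-PEG500 against MSN500, 8 to 10 for MSN-PEG500 against control and 6 to 8 for MSN500 against Stober500.

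Signs changed for small values. With a length trend removed, Stober50 against control gave 0.00 for Keap1 and 0.06 for Slc7a11, and with upper quartile factors Stober50 against Stober500 gave 0.00 for Gclc. Leaving out single libraries spanned, for Stober50 against control, -0.06 to 0.03 for Keap1, -0.03 to 0.03 for Gclc and -0.09 to 0.08 for Slc7a11. For Stober500 against control it spanned -0.01 to 0.05 for Nfe2l2 and 0.00 to 0.18 for Slc7a11. For Stober50 against Stober500 it spanned -0.02 to 0.04 for Gclc, 0.00 to 0.05 for Gclm and -0.06 to 0.02 for Prdx1. For MSN500 against Stober500 it spanned -0.04 to 0.01 for Keap1 and -0.03 to 0.19 for Nqo1, and for MSN-PEG500 against MSN500 -0.06 to 0.24 for Nqo1 and -0.11 to 0.03 for Slc7a11.

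The count of all genes called moved by over 1.5 times in 4 of the 7 comparisons. For Stober50 it was 969, and 584 and 631 without control replicates 1 and 2 and 533 and 412 without Stober50 replicates 1 and 2. For Stober500 it was 1, from 0 to 90 without single libraries (90 without Stober500 replicate 3) and 97 with DESeq2. For Stober50 against Stober500 it was 287, and 158 and 186 without Stober50 replicates 2 and 3 and 176 and 144 without Stober500 replicates 1 and 2. For MSN-PEG500 against MSN500 it was 1027, and 420, 650 and 606 without MSN500 replicates 1, 2 and 3, 615 without MSN-PEG500 replicate 3 and 636 with a length trend removed. Upper quartile factors moved the rises among calls with MSN-PEG500 from 50.9% to 40.9%. The cause of these moves was not tested. Depth limits Nqo1 alone among the 10, at 29 to 61 counts per library.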

Other observations

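The 10 genes together took 0.195% to 0.208% of the counts of a control library, 0.201% to 0.210% over both Stober groups, 0.226% to 0.233% with MSN500 and 0.215% to 0.230% with MSN-PEG500. Slc7a11 was lowest in replicate 2 of each group, at 56.3 CPM in control, 54.0 in Stober50, 58.4 in Stober500, 109 in MSN500 and 111 in MSN-PEG500. Txnrd1 was also lowest in replicate 2 of each group, and Gsr was highest in replicate 1 of each group. These 3 genes were picked after their values were seen, and no test was made. With the replicate number as a block, the log2 change of Slc7a11 with MSN500 was 0.99 (edgeR adjusted p = 7.19e-14). Without the block it was 0.99 (edgeR adjusted p = 1.65e-05). The SE and intervals printed for Slc7a11 are those without the block and include any difference between replicate numbers.

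In the authors' deposited table, made with DESeq2, 8 of the 10 genes passed an adjusted p of 0.05 for control over MSN500, 9 for control over MSN-PEG500, 1 for control over Stober50 (Txnrd1, log2 ratio -0.11) and 0 for control over Stober500. The share of all genes that passed there was not counted. With edgeR it was 42.9% for MSN500 and 34.4% for MSN-PEG500 against control. The deposited log2 ratio of Slc7a11 for control over MSN500 was -0.89 in the authors' deposited table. For MSN-PEG500 over MSN500 the authors' deposited table called Gclc (log2 ratio 0.13, score 14.2) and not Keap1 (-0.14, score 12.9).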
